A study of Mus musculus with 18 samples.

Results

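The *Rnf* genes are named for the RING finger, a zinc-binding fold that brings a ubiquitin-loaded conjugating enzyme next to a substrate. The protein-coding genes of the mouse annotation (GENCODE for mm9) whose symbol is *Rnf* followed by a number alone were taken, which gave 71 of the 22380 protein-coding genes. Ubiquitin ligases choose which proteins receive ubiquitin, and the chain that is built decides whether a protein is degraded, moved or used as a signal. In the testis, ubiquitination accompanies crossover formation in meiosis, the marking of histones before their exchange for protamines, and the removal of protein and membrane as the spermatid sheds its cytoplasm.

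Strand-specific RNA sequencing libraries of 6 groups were compared, with 3 libraries in each group and 18 in all. The groups were polysomes and ribonucleoprotein particles (RNPs) of pachytene spermatocytes, of round spermatids and of elongating spermatids. All cells came from testes of wild-type C57BL/6 adult mice, with no mutation or drug treatment of the animals. Cycloheximide was present while the cells were purified and when the cytoplasm was spread over a sucrose gradient. Polysomes carry mRNA that is loaded with ribosomes, and the light RNP part of the gradient carries mRNA that is not. The cell types were separated by sedimentation at unit gravity (STA-PUT) from pooled testes, and their purity was judged by morphology and was lowest for elongating spermatids. Whether libraries of a group came from separate purifications is not given in the labels, so p-values measure the spread between libraries, which may be technical. These are bulk samples, in which fewer cells of a type and less RNA per cell cannot be told apart.

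Values are FPKM (fragments per kilobase of transcript, scaled to the number of mapped fragments) summed over the assembled transcripts of a gene and scaled between libraries by a median ratio. An FPKM is a value per length, but here it is summed over assembled transcripts, so the order of genes by level holds for this sum only. In elongating polysome library 1, *Rnf41* was at 68.4 and *Rnf141* at 8.17. A wider sum over all overlapping transcripts, weighted by transcript length, put them at 18.5 and 34.7. A value of 0 means that no transcript sharing an annotated junction of the gene was assembled in that library. For an intronless gene it means that no matching single-exon transcript was assembled. Read depth is unknown. Differences are on the log2(scaled FPKM + 1) scale, and the test was limma's moderated test with Benjamini-Hochberg adjustment over 14507 genes. The summed level of 13 elongating spermatid markers (protamines, transition proteins and tail proteins) was 191 to 1424 in pachytene polysomes, 176 to 2741 in round polysomes and 8047 to 13110 in elongating polysomes. In RNPs it was 243 to 3893 in pachytene spermatocytes, 315 to 6980 in round spermatids and 15834 to 48184 in elongating spermatids. The sums of the lists of the earlier cells were not highest in their own cell type. The sum of 13 pachytene spermatocyte markers was 2732 to 3223 in pachytene and 3202 to 3529 in elongating polysomes. In RNPs it was 1496 to 2557 and 3006 to 3201. Single markers of this list went both ways. In polysomes *Sycp1* was at 206.9 to 1251 in pachytene and 47.5 to 82.8 in elongating cells, and *Sycp3* at 191 to 384.5 and 66.3 to 76.5. In RNPs *Sycp3* separated the same way and *Sycp1* overlapped. *Hspa2* was lower in pachytene than in elongating cells in both fractions. The sum of 10 round spermatid markers was 72.2 to 949.5 in round and 1050 to 1496 in elongating polysomes. In RNPs it was 71.2 to 760 and 768 to 1062. The summed level of 15 Sertoli cell markers was 32.6 to 52.9 in the 6 elongating libraries and 54.0 to 2236 in the other 12. The summed level of 8 Leydig cell markers was 9.38 to 23.3 in elongating polysomes against 90.6 to 149 in pachytene polysomes, and 13.4 to 34.2 in elongating RNPs against 62.4 to 155 in pachytene RNPs. Of the 7 Leydig markers tested, 2 were lower by limma in elongating than in pachytene polysomes (*Hsd17b3* and *Insl3*) and 3 in RNPs (*Hsd3b1*, *Insl3* and *Star*), while 0 of 14 Sertoli markers passed. Sums of 9 macrophage and blood markers went the other way, at 35.3 to 103 in elongating polysomes against 12.3 to 25.6 in pachytene polysomes. In RNPs these were 19.6 to 67.3 against 10.1 to 43.5. Sums of 6 peritubular myoid markers overlapped, at 29.0 to 61.7 against 13.5 to 52.7 in polysomes and 39.6 to 92.7 against 12.6 to 49.3 in RNPs. The elongating groups thus differed from the pachytene groups in markers of somatic cells, in both directions, as well as in stage. The part of this in the differences below was not tested. Both round libraries numbered 2 stood apart from the other round libraries, with a correlation across genes of 0.467 to 0.623 against 0.826 and 0.836 between those numbered 1 and 3, and they held the highest Sertoli sums of the round cells (1786 in polysomes and 1604 in RNPs). Their summed level of 10 round spermatid markers was 72.2 in polysomes and 71.2 in RNPs, against 602 to 949.5 in the other 4 round libraries, and that of 7 spermatogonia markers was 384 and 400, the highest of all 18 libraries. The libraries labelled round spermatid 2 thus went against their label. Counts of members that passed in comparisons with round spermatids are also given without them. Other round values, lengths and splice forms include them unless stated. Pachytene RNP library 3 lacked the most members, with 25 of the 71 at 0, against 10 to 20 in the other 17 libraries.

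Of the 71 genes, 43 had a value above 0 in every library and 7 had 0 in every library (*Rnf26*, *Rnf39*, *Rnf152*, *Rnf165*, *Rnf183*, *Rnf186* and *Rnf207*). The filter of at least 1 scaled FPKM in at least 3 libraries kept 60. The other 4 that it removed were *Rnf133*, *Rnf122*, *Rnf208* and *Rnf182*, which were at 0 in most libraries. Of the 60, 38 lay above the median of the 13618 tested protein-coding genes by mean level and 5 in the top 10%. *Rnf138* had the highest mean of all members at 123, followed by *Rnf32* at 107, *Rnf151* at 85.0, *Rnf17* at 79.1, *Rnf139* at 72.8, *Rnf40* at 55.9, *Rnf187* at 53.8 and *Rnf4* at 51.9. On this measure the members thus ranged from genes in the top 10% to genes at 0 in every library. The wider sum also took other transcripts that overlap annotated exons, spliced ones on the same strand and single-exon ones on either strand. On it *Rnf26* was at 3.17 to 7.45 in all 18 libraries, and *Rnf39*, *Rnf165*, *Rnf186* and *Rnf207* stayed at 0.

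**Figure D1:**
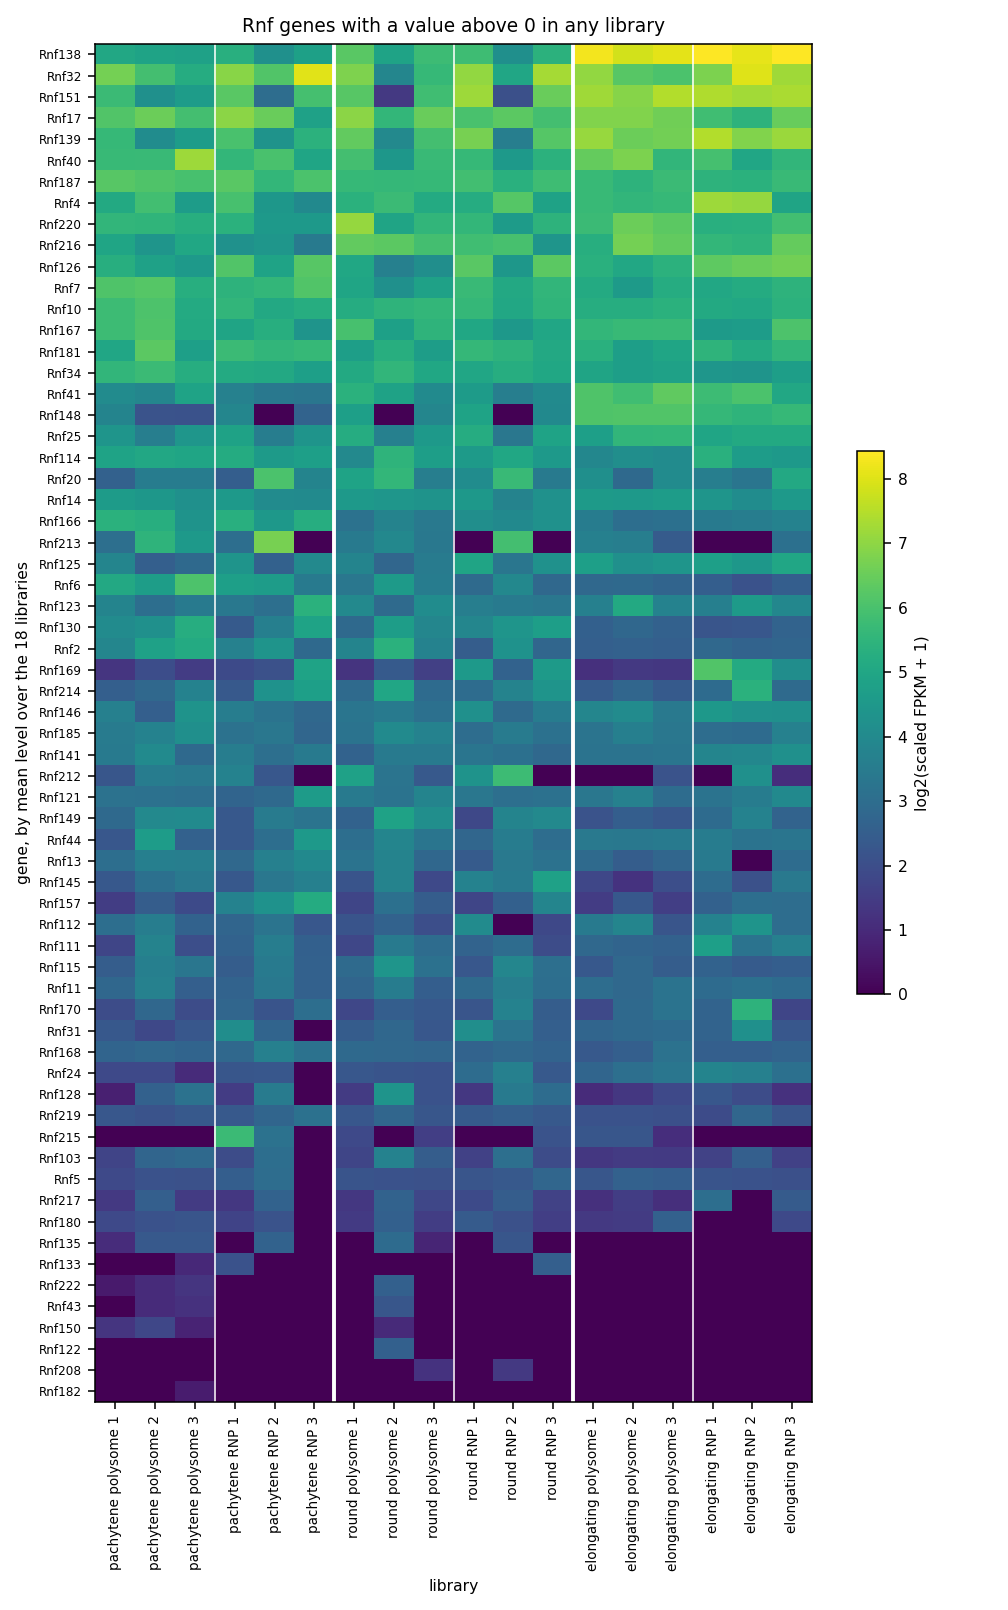
Level of each *Rnf* gene with a value above 0 in any library (rows, ordered by mean level) in each of the 18 libraries (columns), as log2(scaled FPKM + 1) by colour, with white lines between groups. *Rnf138* brightens in the 6 elongating libraries, while *Rnf148* and *Rnf151* are at or near their lowest in the round libraries numbered 2.

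The difference between elongating spermatids and pachytene spermatocytes was the one in which most members passed the test. In polysomes 4 of 60 members passed, 2 of them higher (*Rnf138* and *Rnf41*) and 2 lower (*Rnf6* and *Rnf166*) in elongating spermatids, where 3.89% of all tested genes passed, 2.63% higher and 1.26% lower. In RNPs 3 of 60 passed, with *Rnf138* and *Rnf41* higher and *Rnf6* lower, where 2.96% of all genes passed, 2.31% higher and 0.648% lower. The median difference of the members was -0.12 in polysomes and 0.10 in RNPs, beside -0.01 and 0 over all genes. The share of members that passed was thus not far from that of all genes, and members moved in both directions. The 3 elongating polysome libraries lay above the 3 pachytene polysome libraries for 14 of 60 members and below them for 17, where 20.1% and 18% of all genes did, and in RNPs for 12 and 7, where 15.5% and 9.66% did. Without both round libraries numbered 2, which enter through the shared spread, 11 members passed in polysomes and 9 in RNPs, where 13.4% and 10.7% of all genes did.

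*Rnf138*, a ligase recruited to DNA double-strand breaks, where it helps end resection (chr18:21159842-21186724, plus strand), had the largest differences between cell types of the members that passed. Its level was 32.5, 28.6 and 27.5 in pachytene polysomes, 75.5, 28.3 and 53.7 in round polysomes and 306, 227 and 272 in elongating polysomes. In RNPs it was 39.0, 17.8 and 26.4 in pachytene spermatocytes, 55.7, 17.5 and 41.4 in round spermatids and 341, 276 and 343 in elongating spermatids. All 6 elongating libraries lay above all 12 others, and the elongating fractions overlapped. Elongating spermatids were higher than pachytene spermatocytes by 3.13 in polysomes (limma, SE 0.45, adjusted p = 0.00327) and by 3.54 in RNPs (SE 0.45, adjusted p = 0.00121). Both differences passed under all 27 alternatives, with adjusted p of at most 0.0200 and 0.0135 by limma. Against round spermatids the difference was 2.43 in polysomes (limma, adjusted p = 0.0320) and 3.17 in RNPs (adjusted p = 0.00393), and the first of these missed the threshold under 9 of 27 alternatives, among them without any 1 elongating polysome library, round polysome library 2 or 3, pachytene polysome library 2 or round RNP library 3 (limma, adjusted p up to 0.142). A processed copy, *Rnf138rt1*, is listed on the X chromosome by RefSeq, and how reads shared with it were assigned is not given in the sources used here.

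The step between elongating and round spermatids passed the test for 1 of 60 members in each fraction, *Rnf138* in both, where 0.296% of all genes passed in polysomes and 0.427% in RNPs. Of the members, 5 had an unadjusted p under 0.05 in polysomes and 8 in RNPs. The step between round spermatids and pachytene spermatocytes passed limma for 0 members in polysomes, where 0.0827% of all genes passed, and for 0 in RNPs, where 0% did. Here 5 members in polysomes and 6 in RNPs had an unadjusted p under 0.05. The share of all genes under this unadjusted level was not counted, so the unadjusted counts are not read as a result. With the replicate number as a block, which paired the libraries of the RNP step, 0 members passed there too. Without the round libraries numbered 2, *Rnf138* stayed the 1 member that passed between elongating and round spermatids, at 2.05 in polysomes (limma, adjusted p = 0.0363) and 2.70 in RNPs (adjusted p = 0.00497), where 0.179% and 0.124% of all genes passed. Between round spermatids and pachytene spermatocytes 0 members passed without these libraries in either fraction.

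**Figure D2:**
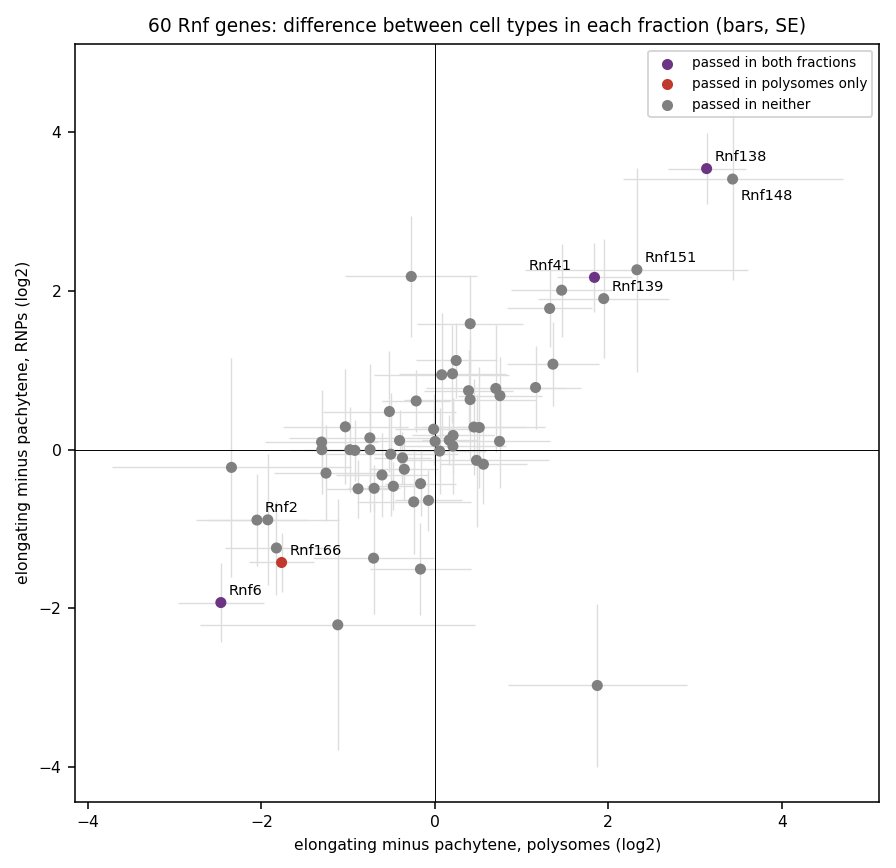
Difference between elongating spermatids and pachytene spermatocytes for the 60 tested *Rnf* genes, in polysomes (horizontal axis) and in RNPs (vertical axis), each as a difference of log2(scaled FPKM + 1) with bars of 1 SE and colours for the fractions in which a gene passed limma at an adjusted p under 0.05. *Rnf138* and *Rnf41* sit at upper right and *Rnf6* at lower left, and whether the difference of *Rnf166* is unequal in the 2 fractions was not shown by these calls.

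Among the ligases of signalling and immunity, 14 of 15 were tested. In elongating polysomes against pachytene polysomes 1 of them passed higher and 2 lower, where 2.63% and 1.26% of all genes did, and 7 of the 14 differences were positive. *Rnf41* (Nrdp1), which degrades the ERBB3 receptor (chr10:127848672-127878494, plus strand), was at 15.6, 13.5 and 28.5 in pachytene polysomes, 40.6, 27.8 and 15.4 in round polysomes and 68.4, 56.4 and 81.4 in elongating polysomes. In RNPs *Rnf41* was at 11.9, 9.32 and 8.91 in pachytene spermatocytes, 23.9, 11.04 and 15.2 in round spermatids and 54.3, 64.5 and 32.4 in elongating spermatids. Its elongating libraries lay above those of both other cell types in each fraction. Against pachytene spermatocytes the difference was 1.84 in polysomes (limma, SE 0.43, adjusted p = 0.0304) and 2.17 in RNPs (SE 0.43, adjusted p = 0.0156). The call in polysomes held under 20 of 27 alternatives and was lost without any 1 elongating polysome library or pachytene polysome library 1 or 2 (limma, adjusted p up to 0.132), with FPKM as deposited (adjusted p = 0.0575) and with quantile normalization (1.38, adjusted p = 0.0933). The call in RNPs held under 23 and was lost without elongating RNP library 1 or 2 or pachytene RNP library 2 and with FPKM as deposited (limma, adjusted p up to 0.0727). When all overlapping transcripts were summed, the difference of *Rnf41* was 1.31 in both polysomes (limma, adjusted p = 0.00638) and RNPs (adjusted p = 0.00594).

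*Rnf6*, a ligase known for acting on LIM kinase and the androgen receptor (chr5:147020768-147033131, minus strand), was at 32.8, 24.9 and 66.8 in pachytene polysomes, 9.15, 22.9 and 10.6 in round polysomes and 6.26, 6.33 and 5.61 in elongating polysomes. In RNPs it was at 26.1, 24.3 and 10.2 in pachytene spermatocytes, 6.57, 14.2 and 6.23 in round spermatids and 4.71, 3.31 and 4.67 in elongating spermatids. Within each fraction *Rnf6* was lowest in the 3 elongating libraries, and the round libraries numbered 2 were closest to the pachytene values. Elongating minus pachytene was -2.47 in polysomes (limma, SE 0.50, adjusted p = 0.0154) and -1.93 in RNPs (SE 0.50, adjusted p = 0.0474). The call in polysomes held under 23 of 27 alternatives and was lost without any 1 elongating polysome library or pachytene polysome library 3 (limma, adjusted p up to 0.0742). That in RNPs held under 11, and among the losses were the fits without any 1 of the 6 elongating libraries, pachytene RNP library 1 or 2, pachytene polysome library 1 or 2 or either round library numbered 3 (limma, adjusted p up to 0.144, without pachytene RNP library 2).

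*Rnf166*, a ligase linked in other cells to autophagy of bacteria (chr8:124990047-124999964, minus strand), was at 41.0, 37.6 and 19.2 in pachytene polysomes, 8.03, 12.5 and 9.51 in round polysomes and 10.7, 7.23 and 7.63 in elongating polysomes. In RNPs *Rnf166* was at 38.4, 21.6 and 36.7 in pachytene spermatocytes, 16.7, 14.9 and 18.4 in round spermatids and 10.1, 10.8 and 12.4 in elongating spermatids. Pachytene libraries lay above all libraries of both kinds of spermatid in each fraction. Elongating minus pachytene was -1.77 in polysomes (limma, SE 0.37, adjusted p = 0.0183) and -1.42 in RNPs (SE 0.37, adjusted p = 0.0526). The call in polysomes held under 23 of 27 alternatives and was lost without elongating polysome library 2 or 3 or pachytene polysome library 1 or 2 (limma, adjusted p up to 0.0899). Round minus pachytene was -1.56 in polysomes (limma, adjusted p = 0.177) and -1.72 without both round libraries numbered 2 (adjusted p = 0.0751), so the size of the step was close to that of the whole difference without passing the test.

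**Figure D3:**
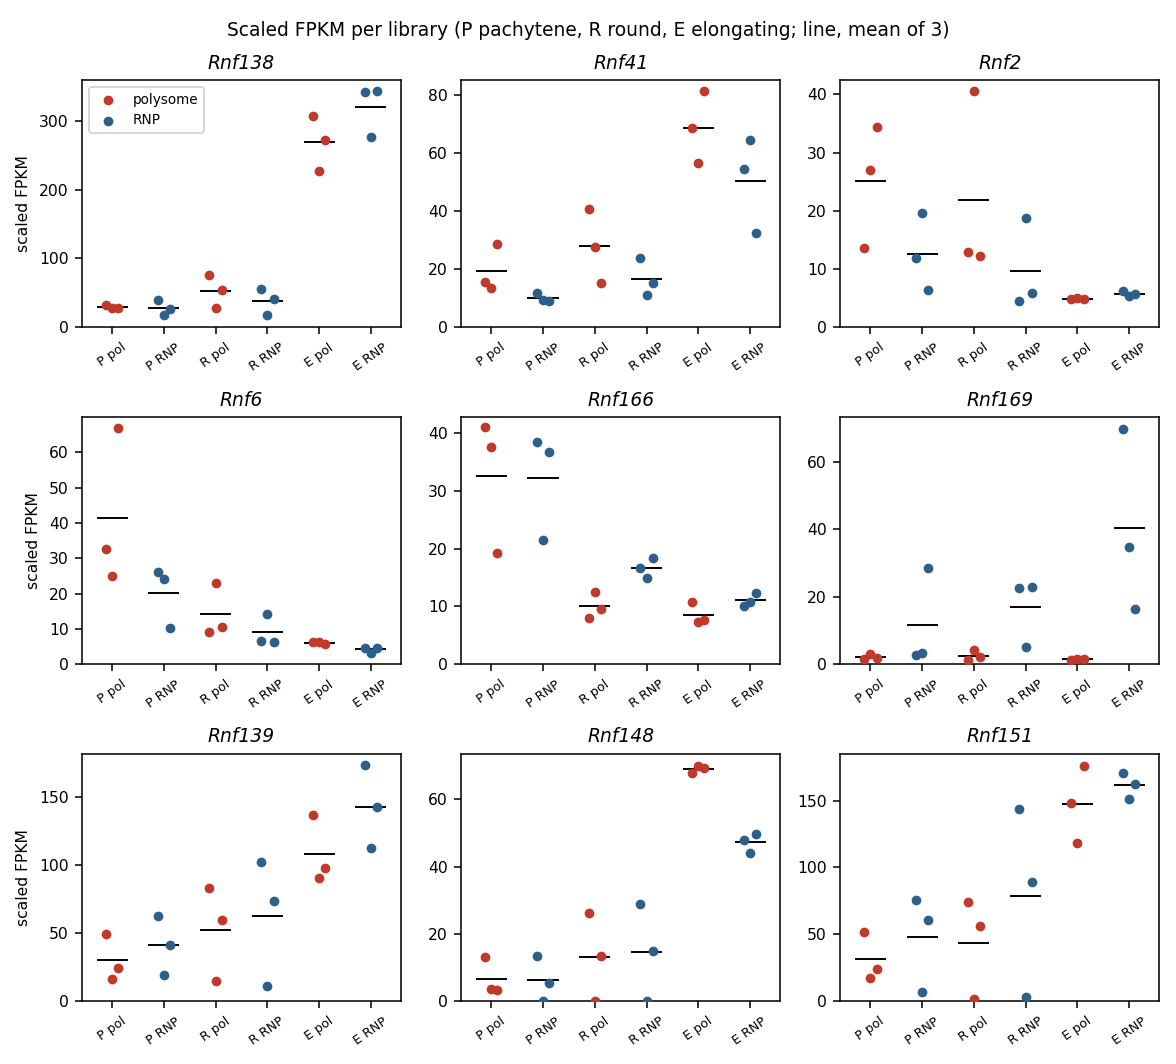
Scaled FPKM of 9 *Rnf* genes in the 6 groups (P pachytene, R round, E elongating, pol polysome), with a point for each of the 3 libraries of a group and a line at their mean. Within each fraction, elongating libraries of *Rnf138* and *Rnf41* lie above the others and those of *Rnf6* below. The polysome and RNP libraries of *Rnf169* separate in elongating spermatids.

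None of the 6 tested genes of the germ cell group passed limma in any comparison on the main measure, and 4 of them were higher on average in elongating than in pachytene cells in each fraction. *Rnf17*, the Tudor-domain protein of a germ cell granule that spermatids need (chr14:57021534-57143869, plus strand), was at 68.8, 91.4 and 59.5 in pachytene polysomes, 122, 47.2 and 88.6 in round polysomes and 114, 112 and 95.6 in elongating polysomes. In RNPs *Rnf17* was at 123, 89.7 and 27.3 in pachytene spermatocytes, 63.0, 77.4 and 59.1 in round spermatids and 55.8, 42.4 and 87.0 in elongating spermatids. The 3 elongating polysome libraries lay above the 3 elongating RNP libraries, by 0.84 on average (limma, adjusted p = 0.694), and the fractions of the earlier cells overlapped.

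*Rnf32*, a testis-enriched gene with 2 RING domains (chr5:29522532-29552064, plus strand), was at 99.6, 59.6 and 36.1 in pachytene polysomes, 111, 13.6 and 49.4 in round polysomes and 131, 74.0 and 65.5 in elongating polysomes. Its RNP values were 122, 69.3 and 266 in pachytene spermatocytes, 133, 30.8 and 155 in round spermatids and 107, 256 and 148 in elongating spermatids. All groups of *Rnf32* overlapped their neighbours, and the low values were the 2 round libraries numbered 2. *Rnf141*, first described in spermatogenic cells (chr7:117960049-117987919, minus strand), was at 9.85, 15.2 and 6.30 in pachytene polysomes, 5.30, 10.1 and 9.76 in round polysomes and 8.17, 8.18 and 8.75 in elongating polysomes. In RNPs *Rnf141* was at 10.95, 7.52 and 9.91 in pachytene spermatocytes, 8.66, 7.67 and 6.199 in round spermatids and 13.3, 13.8 and 17.7 in elongating spermatids. The fractions of elongating spermatids did not overlap, with polysome minus RNP at -0.76 (limma, adjusted p = 0.607), and those of the earlier cells did. The sign of this difference turned with FPKM as deposited (0.070) and when all overlapping transcripts were summed (0.092).

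*Rnf151* (chr17:24852784-24855002, minus strand) and *Rnf148* (chr6:23603898-23605136, minus strand), both known from spermatids, had high and even values in elongating spermatids and values in the earlier cells that varied with the library. *Rnf151* was at 51.9, 17.6 and 24.05 in pachytene polysomes, 73.8, 1.65 and 56.0 in round polysomes and 148, 118 and 176 in elongating polysomes. In RNPs *Rnf151* was at 75.5, 7.12 and 60.8 in pachytene spermatocytes, 143, 3.19 and 88.9 in round spermatids and 171, 151 and 163 in elongating spermatids. Within each fraction every elongating library exceeded every library of the earlier cells, and round libraries numbered 2 were lowest. *Rnf148* was at 13.0, 3.49 and 3.33 in pachytene polysomes, 26.2, 0 and 13.5 in round polysomes and 67.7, 69.9 and 69.2 in elongating polysomes. In RNPs *Rnf148* was at 13.4, 0 and 5.44 in pachytene spermatocytes, 28.8, 0 and 14.9 in round spermatids and 48.0, 44.0 and 49.5 in elongating spermatids. Here too the elongating libraries lay above all others, and elongating polysomes lay above elongating RNPs. Elongating minus pachytene was 2.33 in polysomes (limma, SE 1.29, adjusted p = 0.311) and 2.27 in RNPs (SE 1.29, adjusted p = 0.336) for *Rnf151*, and 3.43 in polysomes (SE 1.27, adjusted p = 0.136) and 3.41 in RNPs (SE 1.27, adjusted p = 0.151) for *Rnf148*. Without both round libraries numbered 2, which enter only through the shared spread, both genes passed in both fractions, in a fit where more of all genes passed too. Each of the 2 genes passed under 2 of 27 alternatives in polysomes and under 1 in RNPs.

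*Rnf133*, a testis-specific transmembrane ligase next to *Rnf148* (chr6:23598869-23600305, minus strand), was left out of the test because it did not reach 1 scaled FPKM in 3 libraries. It was at 0, 0 and 0.958 in pachytene polysomes and 3.36, 0 and 0 in pachytene RNPs, at 0 in all round polysomes, at 0, 0 and 4.91 in round RNPs, and at 0 in all 6 elongating libraries. The wider sum took single-exon transcripts of either strand, and on it *Rnf133* was at 26.8, 0.687 and 4.36 in pachytene polysomes. It was at 68.3, 0 and 23.2 in round polysomes and 364, 237 and 272 in elongating polysomes. On that sum its RNP values were 25.4, 0.702 and 15.3 in pachytene spermatocytes, 70.3, 0 and 29.6 in round spermatids and 220, 168 and 195 in elongating spermatids. Where the main measure was 0, the wider sum of *Rnf133* thus lay in transcripts that share none of its annotated junctions. Whether these were single-exon or on its strand was not tested. On the wider sum it followed the order of *Rnf148* and *Rnf151*, with the elongating libraries above all others. Elongating minus pachytene was then 5.51 in polysomes (limma, adjusted p = 0.0467) and 4.43 in RNPs (adjusted p = 0.107).

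*Rnf212*, which stabilises crossover precursors on the synaptonemal complex in meiosis (chr5:109158481-109178467, minus strand), was at 3.78, 10.5 and 9.61 in pachytene polysomes, 27.2, 8.55 and 4.12 in round polysomes and 0, 0 and 3.46 in elongating polysomes. In RNPs it was at 12.3, 3.87 and 0 in pachytene spermatocytes, 19.1, 54.3 and 0 in round spermatids and 0, 17.9 and 1.16 in elongating spermatids. Elongating polysomes of *Rnf212* lay below both other polysome groups, and the RNP groups overlapped. When all overlapping transcripts were summed, the polysome groups overlapped too, with *Rnf212* at 24.1, 22.8 and 26.7 in pachytene polysomes, 36.8, 56.9 and 14.0 in round polysomes and 20.4, 27.0 and 13.0 in elongating polysomes. None of its transcripts had the annotated chain of introns, and all 8 of its tested crossover partners stayed short of the threshold in every comparison.

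The chromatin ligases did not pass the test. *Rnf2* (Ring1b), the catalytic subunit of Polycomb repressive complex 1 (chr1:153316536-153347953, minus strand), was at 13.6, 27.1 and 34.5 in pachytene polysomes, 12.9, 40.6 and 12.3 in round polysomes and 4.81, 5.06 and 4.81 in elongating polysomes. In RNPs *Rnf2* was at 11.9, 19.6 and 6.37 in pachytene spermatocytes, 4.58, 18.8 and 5.85 in round spermatids and 6.22, 5.37 and 5.78 in elongating spermatids. Elongating polysomes lay below all earlier polysomes, and elongating minus pachytene was -2.05 (limma, SE 0.58, adjusted p = 0.0573). Of 18 other genes of Polycomb repressive complex 1, all tested, 1 passed, *Bmi1* in elongating against pachytene RNPs, where 2.96% of all genes passed. *Bmi1* was higher there by 1.56 (limma, adjusted p = 0.0452), a call that held under 13 of 27 alternatives. In polysomes 4 of the 18 had a positive difference, with a median of -0.68.

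*Rnf20* and *Rnf40* form the complex that ubiquitinates histone H2B. *Rnf20* (chr4:49644878-49669759, plus strand) was at 5.19, 10.7 and 10.5 in pachytene polysomes, 28.6, 47.0 and 11.1 in round polysomes and 17.5, 6.28 and 15.8 in elongating polysomes. In RNPs *Rnf20* was at 4.70, 65.3 and 13.0 in pachytene spermatocytes, 15.97, 50.8 and 10.1 in round spermatids and 11.1, 8.77 and 32.9 in elongating spermatids. Its highest values were in pachytene RNP library 2 and both round libraries numbered 2. These also held the highest Sertoli and spermatogonia sums of their groups, and the part of this in the level of *Rnf20* was not tested. *Rnf40* (chr7:134732212-134747119, plus strand) was at 50.04, 50.8 and 146 in pachytene polysomes, 58.4, 20.9 and 51.8 in round polysomes and 85.4, 107 and 45.7 in elongating polysomes. Its RNP values were 46.2, 63.8 and 29.98 in pachytene spermatocytes, 49.1, 22.5 and 41.8 in round spermatids and 60.97, 30.9 and 45.2 in elongating spermatids. Cell types of each fraction and fractions of each cell type overlapped for *Rnf40*, and all 8 tested partners of the complex stayed short of the threshold in every comparison.

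*Rnf4*, which joins ubiquitin to SUMO-bearing proteins (chr5:34688360-34696083, plus strand), was at 33.5, 57.4 and 24.3 in pachytene polysomes, 40.9, 52.4 and 34.6 in round polysomes and 50.1, 45.7 and 49.1 in elongating polysomes. In RNPs *Rnf4* was at 62.5, 21.1 and 14.9 in pachytene spermatocytes, 35.8, 73.3 and 28.2 in round spermatids and 144, 136 and 29.5 in elongating spermatids. Only elongating RNP libraries 1 and 2 stood above the rest, and library 3 of that group did not. Elongating minus pachytene was 0.41 in polysomes (limma, adjusted p = 0.742) and 1.59 in RNPs (adjusted p = 0.165), and the first of these was -0.075 with quantile normalization. When all overlapping transcripts were summed, *Rnf4* was at 68.9, 49.4 and 51.9 in elongating polysomes against 31.5, 34.5 and 23.1 in pachytene polysomes, and at 52.0, 48.8 and 43.3 in elongating RNPs against 22.2, 23.5 and 20.2 in pachytene RNPs. On that sum *Rnf4* passed in both fractions, at 0.92 in polysomes (limma, adjusted p = 0.0420) and 1.09 in RNPs (adjusted p = 0.0200). *Rnf187*, a ligase that acts on AP-1 coactivation (chr11:58745790-58752418, minus strand), was among the steadiest, with 74.0, 67.7 and 61.2 in pachytene polysomes, 49.5, 48.0 and 48.7 in round polysomes and 50.4, 42.5 and 52.0 in elongating polysomes. Its RNP values were 76.1, 46.9 and 64.8 in pachytene spermatocytes, 57.9, 39.9 and 54.9 in round spermatids and 42.3, 40.6 and 50.8 in elongating spermatids. Pachytene polysomes of *Rnf187* lay above those of both kinds of spermatid, with elongating minus pachytene at -0.48 (limma, adjusted p = 0.374), and its RNP groups overlapped.

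Few members passed the test between polysomes and RNPs of the same cell type, on a scale that sets the typical gene level in all libraries. In elongating spermatids 1 of 60 members passed limma (*Rnf169*, lower in polysomes), where 0.462% of all genes passed. In round spermatids 0 of 60 passed, where 0.179% of all genes did, and in pachytene spermatocytes 0 of 60, where 0.186% did. The members with an unadjusted p under 0.05 numbered 2 in elongating, 3 in round and 3 in pachytene cells, and 0 members passed between round fractions in the paired fit or without both round libraries numbered 2. The median of polysome minus RNP was 0.15 in pachytene, 0.10 in round and -0.17 in elongating cells, beside 0.18, 0.06 and 0.02 over all genes. With FPKM as deposited the medians of members were 1.14, 0.74 and 0.58, beside 1.01, 0.65 and 0.71 over all genes, and 57, 51 and 47 of 61 members were positive, against 37, 35 and 25 of 60 after scaling. The centre of these differences was thus set by the scaling, and a difference is relative to the typical gene. In elongating spermatids the 3 polysome libraries lay above the 3 RNP libraries for 6 members and below them for 12 of 60, where 14.4% and 9.8% of all genes did. The change of this difference between elongating and pachytene cells passed limma for 0 members, where 0.0207% of all genes passed. In it 3 members had an unadjusted p under 0.05. For the unadjusted counts of this paragraph too the share of all genes was not counted, and they are not read as a result.

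*Rnf169*, a reader of ubiquitinated histone H2A at DNA breaks (chr7:107068764-107128968, minus strand), was at 1.47, 2.95 and 1.80 in pachytene polysomes, 1.40, 4.24 and 2.03 in round polysomes and 1.26, 1.64 and 1.60 in elongating polysomes. In RNPs *Rnf169* was at 2.71, 3.30 and 28.7 in pachytene spermatocytes, 22.5, 5.24 and 22.8 in round spermatids and 69.9, 34.7 and 16.5 in elongating spermatids. Polysome libraries were low in every cell type, and in both kinds of spermatid they did not overlap the RNP libraries. Polysome minus RNP was -3.82 in elongating spermatids (limma, SE 0.76, adjusted p = 0.0369), -2.17 in round spermatids (adjusted p = 0.590) and -1.37 in pachytene spermatocytes (adjusted p = 0.757). The call in elongating spermatids held under 15 of 27 alternatives, and was lost without any of the 6 elongating libraries but RNP library 3, any pachytene polysome library or round polysome library 3, with limma adjusted p of up to 0.193 and -3.32 without RNP library 1. Of its FPKM, 99.2% lay in transcripts that share junctions with a noncoding transcript within it, RP23-428N8.1 (chr7:107083788-107114244, minus strand), so its value is uncertain. When all overlapping transcripts were summed, the difference of *Rnf169* in elongating spermatids was -1.22 (limma, adjusted p = 0.411). Its transcripts had no junction at the last annotated intron in elongating RNP libraries 1 and 2, round RNP library 3 and pachytene RNP library 3, and that junction held 7.10% of its FPKM in round RNP library 1.

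*Rnf126*, which ubiquitinates mislocalised membrane proteins in the cytosol, was at 39.4, 32.5 and 41.6 in elongating polysomes and 80.5, 90.4 and 98.1 in elongating RNPs. The fractions did not overlap, with a difference of -1.23 (limma, adjusted p = 0.482). In round spermatids the polysomes were at 31.3, 11.8 and 17.1 and the RNPs at 76.6, 20.8 and 77.7, which overlapped, as did the pachytene fractions at 38.2, 27.3 and 22.2 in polysomes and 69.3, 28.6 and 74.6 in RNPs.

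The other functional groups were described by their counts. Between elongating and pachytene cells, 3.89% of all genes passed in polysomes and 2.96% in RNPs. Of the 12 ligases of endoplasmic reticulum and Golgi membranes, 8 were tested and 0 passed between elongating and pachytene cells, with a median of -0.02 in polysomes and 0.23 in RNPs. Of the 10 ligases of endosomes and lysosomes, 9 were tested and 0 passed, with a median of -0.71 in polysomes, where 2 of 9 differences were positive, and 0.10 in RNPs. Of the 4 ligases with the RING-between-RING arrangement, which pass ubiquitin through a cysteine of their own, 0 passed, with a median of 0.43 in polysomes and 0.63 in RNPs. *Rnf216*, one of these, was at 29.8, 20.2 and 31.7 in pachytene polysomes, 83.5, 77.2 and 59.2 in round polysomes and 38.2, 100 and 83.3 in elongating polysomes. Pachytene polysomes of *Rnf216* lay below both spermatid groups, and elongating minus pachytene was 1.32 (limma, adjusted p = 0.135). *Rnf7*, the RING subunit of cullin 5 ligases, was at 34.7, 23.2 and 35.8 in elongating polysomes and 68.4, 72.5 and 38.1 in pachytene polysomes, which did not overlap, at a difference of -0.88 (limma, adjusted p = 0.179).

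Some members were highest in libraries with large sums of both Sertoli and spermatogonia markers. *Rnf135* was at 0 in all 6 elongating libraries and highest in round polysome library 2, at 6.66. *Rnf213*, a giant ligase of endothelium and immunity, was at 104 in pachytene RNP library 2 and 59.6 in round RNP library 2, and at 0 in pachytene RNP library 3, both other round RNP libraries and elongating RNP libraries 1 and 2. Its polysome values were 7.47, 43.7 and 21.8 in pachytene and 9.84, 14.4 and 9.28 in round cells. On the wider sum *Rnf213* was at 7.38 in pachytene RNP library 2 and 11.03 in round RNP library 2. *Rnf128*, known from T cells, was at 19.7 in round polysome library 2 against 1.75 and 3.37 in the other round polysome libraries. The summed Sertoli level in these libraries was 1786 in round polysome library 2, 1604 in round RNP library 2 and 2236 in pachytene RNP library 2. Their spermatogonia sums, in the same order, were 384, 400 and 204, also the highest of their groups. The part of either in these values was not tested. *Rnf222*, *Rnf43* and *Rnf150*, which reached the filter through few libraries, were above 0 in at least 2 pachytene polysome libraries and in round polysome library 2, and at 0 in every RNP and elongating library and both other round polysome libraries.

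Other genes of the ubiquitin system were counted from lists of whole complexes and families. Between elongating and pachytene cells, 3.89% of all genes passed in polysomes and 2.96% in RNPs, and these counts stand beside those shares. Of 8 genes of ubiquitin and its activating enzymes, 6 were tested and none passed in any comparison. Of 16 core genes of cullin ligases, all tested, *Ddb1*, the adaptor of cullin 4, was lower in elongating than in pachytene RNPs at -2.40 (limma, adjusted p = 0.0288) and no other passed. All 5 genes of the linear chain complex of *Rnf31* stayed short of the threshold. Of 63 other RING ligases, 61 were tested, and in elongating against pachytene polysomes *Mex3d* (3.81, limma, adjusted p = 0.00688), *Ubr7* (1.97, adjusted p = 0.00688) and *Znrf1* (2.08, adjusted p = 0.0143) were higher and *Siah1a* (-3.93, adjusted p = 0.00560) was lower. In RNPs *Mex3d* (3.32, limma, adjusted p = 0.0153), *Ubr7* (2.13, adjusted p = 0.00570) and *Mex3b* (2.60, adjusted p = 0.0242) were higher and *Siah1a* (-3.45, adjusted p = 0.0133) was lower. *Ubr7* was also higher in elongating than in round RNPs (1.70, limma, adjusted p = 0.0412), and *Siah1a* was lower in round than in pachytene polysomes (-3.93, adjusted p = 0.0308), calls that held under 9 and 13 of 27 alternatives. On the sum of all overlapping transcripts *Siah1a* was lower in elongating cells by -1.59 in polysomes (limma, adjusted p = 0.0109) and -1.70 in RNPs (adjusted p = 0.00714), *Ddb1* was at -1.03 (adjusted p = 0.139), and *Znrf1* was at 1.28 (adjusted p = 0.00552).

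The assembled transcripts also showed which splice forms made up these levels. These forms were chosen after their values were seen and are described without a test. Of the 63 members with a spliced transcript, the annotated chain of introns held 47.8% of all scaled FPKM, over 90% in 14 members and none in 5 (*Rnf123*, *Rnf122*, *Rnf212*, *Rnf213* and *Rnf4*). *Rnf6* and *Rnf151* were nearly all on the annotated chain, with 98.0% and 93.1%, while the share was 83.4% for *Rnf166*, 50.5% for *Rnf138*, 22.1% for *Rnf41* and 16.01% for *Rnf169*. The annotated chain of *Rnf41* held 59.3% of its FPKM in elongating RNP library 3 and 0% in the other 5 elongating libraries, against 100% in all pachytene RNP libraries and pachytene polysome libraries 1 and 2 and 0% in pachytene polysome library 3, so its higher level in elongating spermatids lay mostly in other chains.

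*Rnf138* changed form between cell types. Its exon 7, of 108 bases or 36 codons (chr18:21182910-21183017), was joined to exon 8 in pachytene polysomes at 22.2 to 23.4, in pachytene RNPs at 12.7 to 22.6, in round polysomes at 0 to 28.3 and in round RNPs at 14.7 to 31.7. This junction was found in 0 of the 6 elongating libraries. The form that joins exon 6 to exon 8 was at 5.19 to 9.95 in pachytene polysomes, 0 to 42.4 in round polysomes and 60.1 to 104 in elongating polysomes, and in RNPs at 3.39 to 16.4, 2.80 to 23.97 and 96.6 to 271 in the same order of cell types. Another form ended inside exon 7, at base 21182989 and before the annotated stop codon, in all 6 elongating libraries and in round polysome library 1, with 167 to 205 in elongating polysomes and 71.5 to 245 in elongating RNPs. The increase of *Rnf138* in elongating spermatids thus lay in transcripts without the full exon 7.

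*Rnf139* (TRC8), a ligase of the endoplasmic reticulum that acts on proteins of sterol and membrane control (chr15:58720784-58733945, plus strand), was at 49.4, 16.2 and 24.1 in pachytene polysomes, 82.98, 14.7 and 59.5 in round polysomes and 137, 90.7 and 97.6 in elongating polysomes. In RNPs *Rnf139* was at 62.8, 19.1 and 41.5 in pachytene spermatocytes, 102, 11.2 and 73.4 in round spermatids and 173, 113 and 143 in elongating spermatids. Elongating libraries lay above all others of the same fraction, and elongating minus pachytene was 1.95 in polysomes (limma, SE 0.75, adjusted p = 0.152) and 1.90 in RNPs (SE 0.75, adjusted p = 0.174). Its transcripts differed in an intron of 5177 bases (chr15:58732674-58737850) that starts 984 bases after the stop codon, inside the annotated 3′ UTR. The intron was spliced in 100% of the *Rnf139* FPKM of all 6 elongating libraries. It was spliced in 0 to 10.8% in pachytene polysomes, 26.8 to 100% in pachytene RNPs, 0 to 14.4% in round polysomes and 0 to 100% in round RNPs. The spliced form of *Rnf139* thus ran at 90.7 to 137 in elongating polysomes, against 0 to 5.34 in pachytene polysomes and 0 to 11.9 in round polysomes.

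The sequences at this intron and at the common end of the unspliced form are shown because they mark where the *Rnf139* forms part. In the first 2 sequences the capitals mark the GT and AG at the ends of the intron, and in the third no polyadenylation signal (AATAAA or ATTAAA) was found. Bases are of mm9, plus strand, at chr15:58732659-58732688, chr15:58737836-58737865 and chr15:58732944-58732973.
Rnf139 donor: aatatattgttagagGTatgtaatcacctt
Rnf139 acceptor: ctaatttattttcAGccactgtaacagact
Rnf139 unspliced end: aatgaagtctgcacagtaaaacaggctaag
The unspliced end lay 1284 bases after the stop codon, while the annotated end lay 2256 bases after it. The unspliced form of *Rnf139* was found in 10 libraries and ended within 5 bases of that point in 7 of them.

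**Figure D4:**
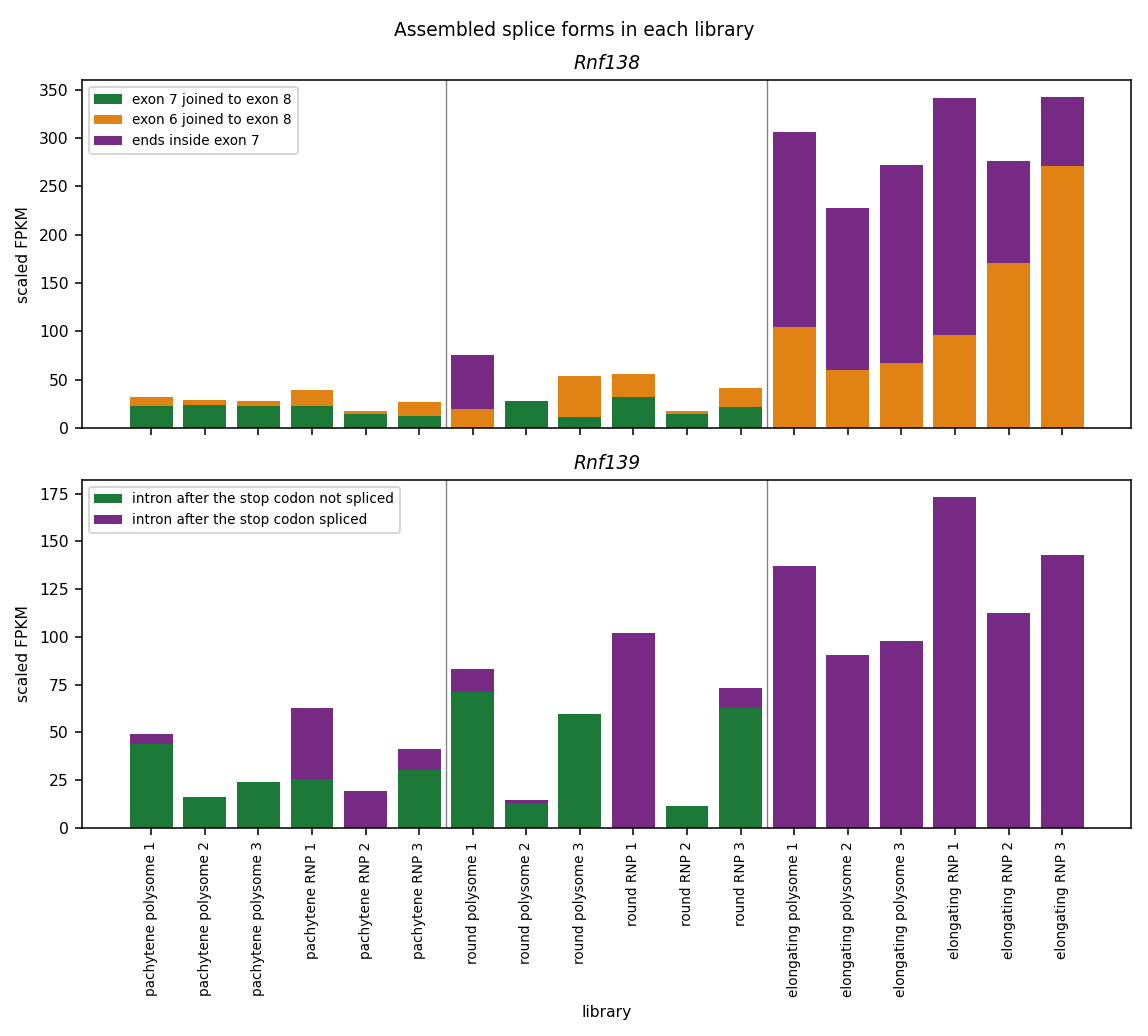
Scaled FPKM of the forms of *Rnf138* and *Rnf139* in each of the 18 libraries, stacked by form. In all 6 elongating libraries the bars of *Rnf138* hold only forms without the full exon 7, and those of *Rnf139* only the form with the intron after the stop codon spliced.

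The assembled part of each transcript after the stop codon was longer in polysomes than in RNPs for most members, as it was for most genes. The RNP assemblies were also smaller, with 26773 to 50480 transcripts against 43450 to 109864 in polysomes. The smallest, pachytene RNP library 3, had the shortest median over members, at 719 bases. The part of assembly size in these lengths was not tested. The FPKM-weighted length of the assembled 3′ UTR was measured in 33 members and 4598 protein-coding genes that had a value in all 18 libraries. The median over members was 1106 to 1212 bases in pachytene polysomes and 719 to 1029 bases in pachytene RNPs, 1143 to 1366 in round polysomes and 885 to 1004 in round RNPs, and 1030 to 1108 in elongating polysomes and 724 to 803 in elongating RNPs. Over all genes it was 675 to 765.5 and 366 to 608, 580 to 703.5 and 494.5 to 561, and 528 to 567 and 394 to 503 bases in the same order. The median assembled 3′ UTR was thus longer for members than for all genes in every group. Polysome libraries of the members did not overlap their RNP libraries in any cell type. By gene, polysome minus RNP had a median of 65.3 bases in pachytene, 100 in round and 160 in elongating cells for members, beside 76.3, 50 and 26.0 for all genes. In elongating spermatids 30 of 33 members (90.9%) were longer in polysomes, beside 75.8% of all genes, and in 13 (39.4%) the 3 and 3 libraries did not overlap, beside 16.1% of all genes. The shares longer in polysomes were 87.9% beside 86.5% in pachytene and 78.8% beside 80.8% in round cells. Those longer without overlap were 30.3% beside 22.7% in pachytene and 21.2% beside 14.9% in round cells. *Rnf2* was one of those that separated, with 825, 1900 and 1872 bases in elongating polysomes and 367, 356 and 365 in elongating RNPs.

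**Figure D5:**
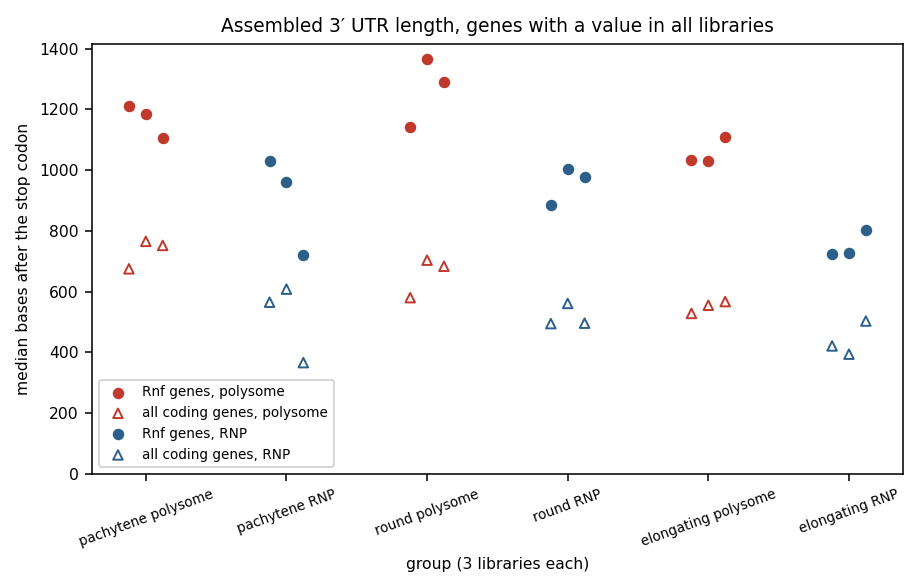
Median assembled 3′ UTR length in bases in each library of the 6 groups, for 33 *Rnf* genes and for 4598 protein-coding genes. Points of the members lie between 719 and 1366 bases, above those of all genes in every group, and polysome points lie above the RNP points of the same cell type.

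Transcript ends that recurred in at least 9 libraries (within 10 bases) were found for 23 members. The last 40 bases held AATAAA, the usual polyadenylation signal, at 14 of these ends (60.9%) and ATTAAA without it at 4 (17.4%), searched on the strand of the gene. Over 4784 such ends of all protein-coding genes the shares were 62.5% and 13.4%. A match describes these letters and does not show that an end was made there. The following ends are shown because they belong to members with levels described above and hold the signal, which is in capitals. They are read on the strand of the gene from mm9, at chr14:57143829-57143858 (plus), chr6:23603894-23603923 (minus), chr8:124990040-124990069 (minus), chr11:58745790-58745819 (minus) and chr5:143752573-143752602 (minus).
Rnf17 end: tttttactgtcctttcaaAATAAAatttag
Rnf148 end: tgaaAATAAAgctacatatcatgcccagga
Rnf166 end: aAATAAAgtgtttccaagcacccacgcgag
Rnf187 end: cagtgctgAATAAAgtggtttgctccagcc
Rnf216 end: cttttgtgtaAATAAAtgtttgtgaacgct
The median distance of these recurring ends from the stop codon was 839 bases for members and 363 bases for all genes.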

How the data were processed

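Each deposited file is an assembly of 1 library, in which every transcript has an FPKM computed by the authors, with no normalization between libraries and no read counts. TopHat, Cufflinks and mm9 are named in the submitters' processing notes without versions. Coverage per FPKM, a constant of each library, ran from 1.20 to 2.26, and read depth itself is unknown, so the 3 libraries of a group set the precision.

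The FPKM of a gene was the sum over transcripts that share a splice junction with it on the same strand (single-exon transcripts for intronless genes). The wider sum also gave each remaining transcript to the gene whose exons it overlapped most, single-exon ones on either strand. There each FPKM was weighted by transcript length over the longest annotated length of the gene. Libraries were scaled by the median ratio over 7038 genes with FPKM above 1 in all 18 libraries. The factors moved polysome libraries by 0.32 to 0.64 and RNP libraries by -1.06 to -0.19 on the log2 scale. Genes with at least 1 scaled FPKM in at least 3 libraries were compared on log2(scaled FPKM + 1) with limma 3.58.1 (trend) in R 4.3.3, in 1 model of 6 groups, two-sided, with Benjamini-Hochberg adjustment over 14507 genes and a threshold of 0.05. The scale understates the change of low genes. The calling of genes was tested on simulated data.

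Members named with all values were those that passed in any comparison, the 8 with the highest mean level and 11 with a known role in germ cells. *Rnf126*, *Rnf216*, *Rnf7*, *Rnf128*, *Rnf213* and *Rnf5* were named after their values were seen. Members, lists and rule were chosen with earlier results of these data known. Of symbols with *Rnf* and a number, 2 genes are not reported here, and 5 symbols that end in a letter were not members.

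Deviations of libraries with the same number correlated above 0.1 for every number in 2 comparisons, the fractions of round spermatids (lowest r 0.198) and round minus pachytene RNPs (lowest r 0.144), which were taken as paired from the data alone. Alternatives were FPKM as deposited, quantile normalization, a pseudocount of 0.1, no filter, a filter at 5, a fit of only the libraries compared, a replicate block, sums over any overlapping transcript, removal of both round libraries numbered 2, and each library left out in turn.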

Additional observations from a re-analysis of the deposited data

Results flagged for a closer look

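*Rnf5*, a ligase of the endoplasmic reticulum membrane, stood out because its fractions did not overlap in opposite directions in the 2 kinds of spermatid. It was at 3.80, 5.16 and 4.77 in elongating polysomes and 3.54, 3.40 and 3.19 in elongating RNPs, a difference of 0.34 on the log2 scale. In round spermatids it was at 3.53, 3.34 and 3.25 in polysomes and 3.67, 4.06 and 5.86 in RNPs, a difference of -0.32. When all overlapping transcripts were summed, *Rnf5* stood at -0.13 in elongating and -0.43 in round spermatids, and with FPKM as deposited at 1.05 and 0.30, so the opposite directions were not found on these measures. Neither difference passed limma, and the difference between them was not tested.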

How the results depend on the processing

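Between elongating spermatids and pachytene spermatocytes, the 4 members that passed in polysomes became 15 in a fit of only the libraries compared (14.9% of all genes), 7 with a replicate block (6.81%) and 11 without both round libraries numbered 2 (13.4%), and 1 to 6 when 1 library was left out. The 3 in RNPs became 1 with FPKM as deposited (0.689%), 6 with a replicate block (6.70%), 6 with any overlapping transcript (8.58%) and 9 without both round libraries numbered 2 (10.7%), and 1 to 5 when 1 library was left out. The single call of elongating against round RNPs became 0 with only the libraries compared and stayed at 1 with each library left out, while that in polysomes became 0 with quantile normalization or with only the libraries compared, and was 0 to 1 with each library left out. The single call between elongating fractions became 0 with quantile normalization, a replicate block or any overlapping transcript, and 3 with only the libraries compared (2.61%), and was 0 to 1 with each library left out. With FPKM as deposited, 8 members were called higher in pachytene polysomes than RNPs against 0 with scaling, where 6.34% of all genes passed in either direction, while the median of all genes stood at 1.01, against 0.18. All other counts of members were 0 whichever library was left out. Of 43 named differences, the 22 that passed kept their sign under all 27 alternatives. Of the 21 others the sign turned for *Rnf141* between elongating fractions (0.070 with FPKM as deposited and 0.092 with any overlapping transcript), for *Rnf4* between elongating and pachytene polysomes (-0.075 with quantile normalization) and for *Rnf5* between elongating fractions (-0.13 with any overlapping transcript) and between round fractions (0.30 with FPKM as deposited). In the 2 comparisons taken as paired the block left 0 members called. Elsewhere libraries share only a number. The cause of these changes was not tested.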
